A study of Saccharomyces cerevisiae with 12 samples.

Results

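Messenger RNA of budding yeast (Saccharomyces cerevisiae, strain S288c) carrying the Swi3 substitution S237A, alanine for a serine, was compared with that of wild type cells. The 3 libraries whose genotype label is SWI3 S237A (replicates 2, 10 and 18) were set against the 3 labelled wild type (replicates 1, 9 and 17), which are 6 of the 12 libraries of the study. The other 6 libraries, 3 of an RPD3 deletion (RPD3 KO, replicates 4, 12 and 20) and 3 of a strain with another such substitution in Rpd3 (RPD3 S418A, replicates 3, 11 and 19), share 1 fit with them and serve below as a contrast. Per the labels, cells of all 4 strains were grown in synthetic defined medium and harvested at an OD600 of 0.4. A treatment note common to all samples adds that some received 20 mM caffeine during 4 h, whereas each of the 12 libraries is labelled synthetic defined medium. The study's title names phosphosite mutants, and the comparison asks what changes in the transcriptome when this serine can no longer be modified. The sources do not state how many clones stand for each strain.

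Swi3 is a scaffold subunit of SWI/SNF, a chromatin remodelling complex whose motor subunit Snf2 uses ATP to slide or evict nucleosomes. In yeast the complex is known for its role at highly inducible promoters, such as those of heat shock genes, of HO, of SUC2 and of the Ty transposons, and for the repression of SER3 through transcription of an upstream noncoding RNA. Serine carries a hydroxyl group to which kinases can attach a phosphate, and alanine lacks it.

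SWI3 lies on the minus strand of chromosome X at chrX:92053-94530 in build R64, and codes for 825 residues. The reference codon of the residue named in S237A is TCT, a serine codon, at chrX:93820-93822. It is shown in capitals with 36 coding bases on each side (chrX:93784-93858, minus strand, 5′ to 3′), because this is the codon the strain's label changes.
SWI3: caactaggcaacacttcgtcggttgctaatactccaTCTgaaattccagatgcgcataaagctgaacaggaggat
The deposited values are counts per gene, so the substitution itself could not be read from them.

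Total estimated counts ran from 20154519 to 26952041 over the 6 libraries, and 6327 of 6713 targets passed the filter on low counts. Levels are given as CPM, counts relative to the library total after TMM scaling, in the order of the replicates named above. Log2 differences are SWI3 S237A minus wild type ± SE with n = 3 libraries per strain, and adjusted p-values come from edgeR. Each SE was derived from the edgeR test, as the absolute log2 difference over the square root of its F statistic. It therefore uses a spread estimated over all 12 libraries. Nothing in the labels ties the libraries of a strain to separate cultures, so the p-values measure the spread between these libraries only. Wild type replicate 1 stood apart. The chi-square statistic per degree of freedom between it and replicates 9 and 17 was 105 and 121, against 9.08 between the latter pair and 7.03 to 16.9 between the SWI3 S237A libraries. Its ribosome biogenesis genes lay 0.57 log2 units above the wild type mean and its Msn2 and Msn4 stress genes 0.48 below. In all 6 libraries URA3, CAN1, LYP1 and MET17 were at 0 counts, the alpha-pheromone gene MF(ALPHA)1 had 17731 to 35391 counts and the a-pheromone genes MFA1 and MFA2 had at most 6. Of the other a-specific genes, AGA2 had 2 to 8 counts and ASG7 27 to 43. STE2 had 87 to 126, BAR1 93 to 218 and STE6 342 to 447. Leaving out wild type replicate 1 or another wild type library changed the call of some genes named below. It also moved some list counts by over 1.5 times. The values without that library are given beside the result or with the alternatives at the end.

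The transcript of SWI3 did not pass the test. Its CPM was 73.6, 81.7 and 88.8 in wild type and 87.4, 88.2 and 84.5 in SWI3 S237A, so the groups overlap. The difference was 0.09 ± 0.08 (adjusted p = 0.342; exact two-sided permutation test, p = 0.4, where 3 against 3 libraries can reach no less than 0.1). Of its chromosomal neighbours, the ribosomal protein gene RPL17B differed by -0.05 ± 0.10 (adjusted p = 0.647). KRE9, which acts in cell wall glucan synthesis, was at 183, 166 and 175 CPM in wild type and 195, 205 and 196 in SWI3 S237A, a rise of 0.19 ± 0.07 (adjusted p = 0.0458) that was lost in 6 of the 13 alternative analyses.

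Over all tested targets 28.7% were called higher and 31.3% lower in SWI3 S237A. Of the 12 subunits of SWI/SNF, 3 rose, 4 fell and 5 did not pass, with a median of 0.09, so the share called lower (33.3%) lay near that of all targets, and the share called higher lay below it. SWI1, a large subunit that contacts activators, was at 30.1, 19.3 and 16.0 CPM in wild type and 43.1, 34.5 and 37.7 in SWI3 S237A, and rose by 0.82 ± 0.22 (adjusted p = 0.00832). SNF2, the ATPase, rose from 81.2, 83.0 and 81.1 CPM to 115, 112 and 113 CPM (log2 0.47 ± 0.09, adjusted p = 0.000557). SNF5, a core subunit, rose by 0.30 ± 0.06 (adjusted p = 0.00112). In each of these genes the groups did not overlap. The 4 that fell were SNF11 (-0.44 ± 0.09), SNF12 (-0.28 ± 0.08), TAF14 (-0.24 ± 0.06) and RTT102 (-0.21 ± 0.06), all by less than 1.4-fold. SNF12 and RTT102 each missed the threshold when certain single libraries were left out (adjusted p up to 0.0687). SNF6, SWP82 and the actin-related ARP7 and ARP9 differed by -0.09 to 0.14 and did not pass.

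Across the transcriptome 3799 of 6327 targets passed the test (60.0%), of which 1816 were higher (28.7%) and 1983 lower (31.3%) in SWI3 S237A. At least 2-fold changes comprised 398 rises (6.29%) and 456 falls (7.21%), and at least 4-fold changes 71 rises (1.12%) and 165 falls (2.61%). The median log2 difference of all tested targets was -0.02. The 3 SWI3 S237A libraries lay above all 3 wild type libraries for 2013 targets (31.8%) and below all of them for 2180 (34.5%). In the authors' deposited table of the same comparison 1691 targets were called higher and 1713 lower. Of the 3784 targets called here that have an adjusted p there, 3338 were called with the same sign and 0 with the opposite sign. Targets called here that have none there include OLE1, NSR1, IZH4, YGR160W, FAA4 and URA2, so that comparison does not cover these rises.

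**Figure D1:**
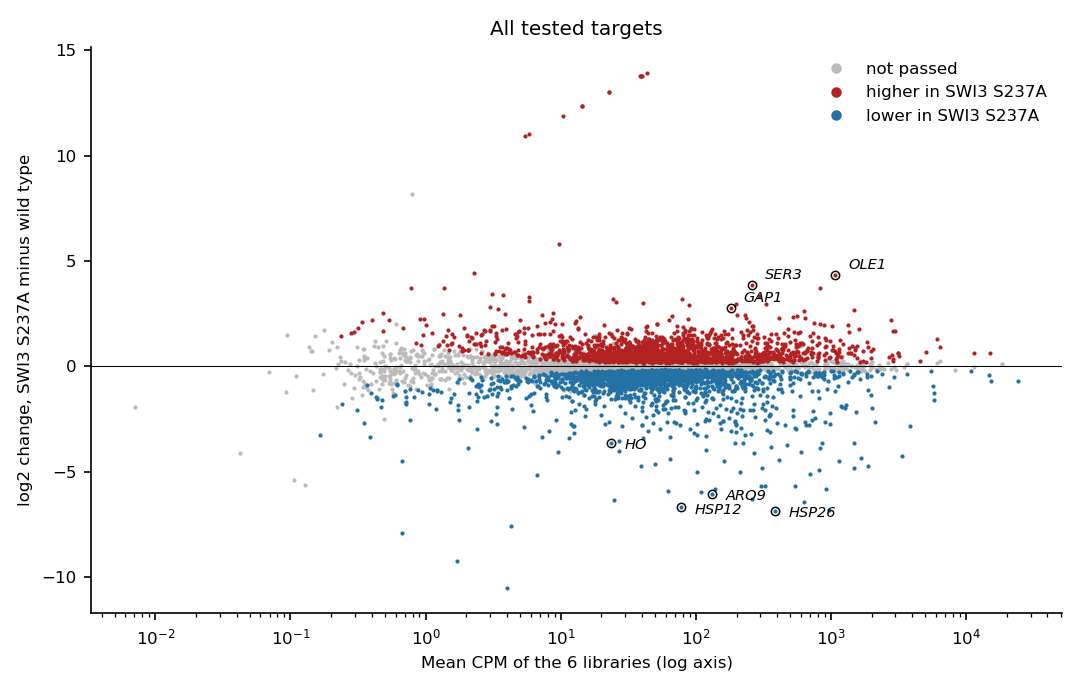
Log2 difference (SWI3 S237A minus wild type, vertical axis) against the mean CPM of the 6 libraries (log axis) for the 6327 tested targets, coloured by call. Of the labelled genes HSP26 lies lowest at -6.85 and OLE1 highest at 4.33. Points above 10 are transposon frames at 0 counts in wild type, whose reads fit several copies.

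The 12 largest falls, among genes with little sequence shared with others, were 51.8-fold to 115-fold. HSP26, a small heat shock protein that binds unfolded proteins, was at 485, 796 and 1015 CPM in wild type and at 6.80, 6.61 and 6.49 CPM in SWI3 S237A (log2 -6.85 ± 0.32, adjusted p = 3.02e-08). HSP12, a membrane-associated stress protein, was at 42.7, 175 and 245 CPM against 1.34 to 1.60 CPM (-6.69 ± 0.80, adjusted p = 6.92e-05). HSP30, a plasma membrane protein that restrains the proton pump, was at 1870, 1014 and 872 CPM against 14.2, 14.5 and 15.2 CPM (-6.42 ± 0.30, adjusted p = 2.32e-08). The wild type libraries spread over a wide range for these genes, while the mutant libraries lay close together and below all of them. DDR2, RTC3, EGO4, TMA10, RGI1 and YRO2 fell by 5.70 to 6.36 on the log2 scale. SSA4, a stress-inducible Hsp70 chaperone, was at 1900, 1519 and 2017 CPM in wild type and at 29.9, 33.5 and 32.2 CPM in SWI3 S237A (-5.83 ± 0.16, adjusted p = 2.05e-11). ZEO1, a peripheral membrane protein linked to cell wall signalling, was at 795, 554 and 556 CPM against 12.5, 11.4 and 12.9 CPM (-5.69 ± 0.15, adjusted p = 1.79e-11). ARO9, an aromatic aminotransferase that degrades tryptophan and related amino acids, was at 117, 315 and 352 CPM against 3.71, 4.11 and 3.95 CPM (-6.06 ± 0.40, adjusted p = 7.77e-07).

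**Figure D2:**
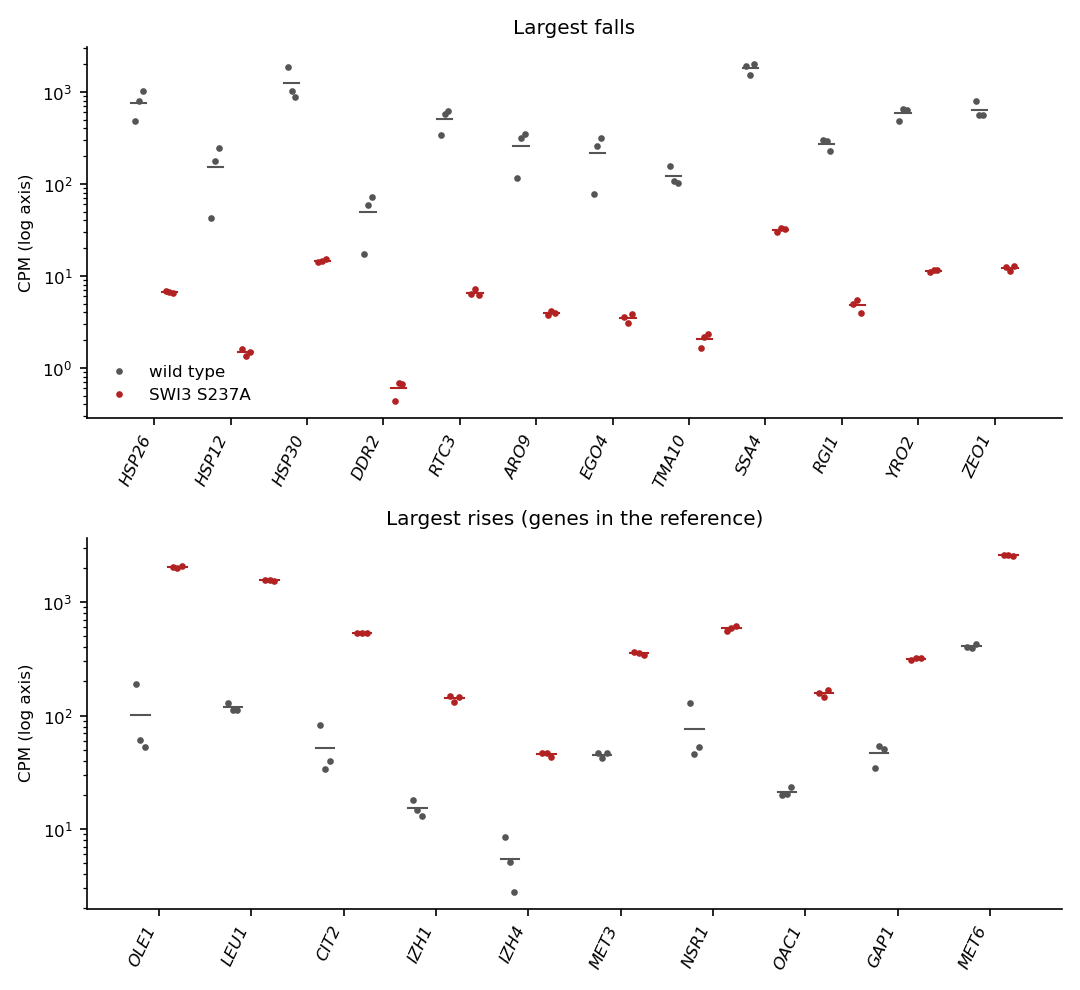
CPM (log axis) in each wild type and SWI3 S237A library for the genes with the largest falls (top) and rises (bottom); points are libraries and bars are means. In every gene shown the 3 mutant libraries lie on 1 side of the 3 wild type libraries, which the choice of genes required. The unannotated frames YER068C-A and YGR160W are left out.

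Heat shock factor Hsf1 drives genes of protein folding by binding heat shock elements, inverted repeats of GAA. Of 29 tested genes in the list of Hsf1 chaperones, 27 fell, 0 rose and 2 did not pass, with a median of -2.64 against -0.02 over all targets. HSP104, the disaggregase, was at 6941, 5995 and 6221 CPM in wild type and at 317, 336 and 336 CPM in SWI3 S237A (-4.28 ± 0.08, adjusted p = 2.86e-12). HSP82, the inducible Hsp90, was at 3961, 3412 and 3500 CPM against 134, 135 and 137 CPM (-4.74 ± 0.09, adjusted p = 3.39e-12); 15.5% of its 31-base words also occur in other genes. HSP78, the mitochondrial disaggregase, fell by 3.90 ± 0.10 on the log2 scale, and CPR6, a cochaperone of Hsp90, by 2.79 ± 0.07. The 2 that did not pass were SSE1, an Hsp110 nucleotide exchange factor, at -0.22 ± 0.10 (adjusted p = 0.0800), and APJ1, an Hsp40 chaperone. SSE1 passed without wild type replicate 9 (-0.30, adjusted p = 0.0332). APJ1 was at 108 CPM in wild type replicate 1 and at 20.8 to 24.3 CPM in the other 5 libraries (-1.12 ± 0.54, adjusted p = 0.0979), and it passed without wild type replicate 9 (-1.46, adjusted p = 0.0420) or 17 (-1.49, adjusted p = 0.0288). Both of these fits keep replicate 1, so the fall of APJ1 rests on that library. On the TPM scale, which corrects for length, the whole list summed to 28777 to 30970 in the wild type libraries and to 8371 to 8666 in the SWI3 S237A libraries.

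Msn2 and Msn4 are paired transcription factors of the general stress response that bind stress response elements. Of their 40 tested targets 36 fell, 0 rose and 4 did not pass, with a median of -2.88. SPI1, a cell wall protein, was at 385, 377 and 468 CPM in wild type and at 11.9, 13.7 and 12.9 CPM in SWI3 S237A (-4.99 ± 0.17, adjusted p = 1.96e-10). GND2, a minor phosphogluconate dehydrogenase, and PHM7 did not pass, at -0.09 ± 0.22 and 0.22 ± 0.11. Without wild type replicate 1 GND2 passed, at -0.35 (adjusted p = 0.0427). The summed TPM of the list was 17517, 27814 and 29358 in wild type and 2479, 2694 and 2724 in SWI3 S237A, so its lowest value in wild type was that of replicate 1. Without that library 38 of the 40 fell, with a median of -3.13. In RPD3 KO the summed TPM of the list was 2795 to 2935.

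Trehalose and glycogen are the reserve carbohydrates of yeast. Of 16 trehalose and glycogen genes, 15 fell and 1 did not pass, with a median of -1.90. GSY2, the main glycogen synthase, was at 870, 1298 and 1249 CPM in wild type and at 60.4, 71.1 and 69.3 CPM in SWI3 S237A (-4.09 ± 0.15, adjusted p = 2.4e-10). Its paralogue GSY1 fell by 3.81 ± 0.11, the trehalose synthase subunit TSL1 fell by 3.63 ± 0.12 and the trehalose phosphatase TPS2 by 2.46 ± 0.10 on the log2 scale. NTH2, a trehalase, was the member that did not pass (-0.07 ± 0.09, adjusted p = 0.510). Among 25 antioxidant genes 14 fell and 3 rose, with a median of -0.37. GPX2, a glutathione peroxidase, fell by 3.53 ± 0.27 and SOD1, the copper-zinc superoxide dismutase, by 1.18 ± 0.10 on the log2 scale.

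Upstream sequences were searched for known elements. Windows of 300 bases that begin 400 bases before the start codon were read from the R64 reference for 6007 genes, and both strands were searched. Windows of HSP26 (chrII:381630-381929, plus strand) and HSP12 (chrVI:106856-107155, plus strand) are shown because these genes led the falls. Capitals mark the stress response element AGGGG and the 2-unit heat shock element, GAANNTTC or TTCNNGAA, on either strand.
HSP26: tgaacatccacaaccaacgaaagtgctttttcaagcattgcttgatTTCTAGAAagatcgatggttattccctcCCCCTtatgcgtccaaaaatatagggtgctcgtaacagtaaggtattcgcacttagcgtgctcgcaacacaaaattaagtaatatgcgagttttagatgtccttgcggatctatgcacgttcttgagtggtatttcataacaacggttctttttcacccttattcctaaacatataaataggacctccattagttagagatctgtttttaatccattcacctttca
HSP12: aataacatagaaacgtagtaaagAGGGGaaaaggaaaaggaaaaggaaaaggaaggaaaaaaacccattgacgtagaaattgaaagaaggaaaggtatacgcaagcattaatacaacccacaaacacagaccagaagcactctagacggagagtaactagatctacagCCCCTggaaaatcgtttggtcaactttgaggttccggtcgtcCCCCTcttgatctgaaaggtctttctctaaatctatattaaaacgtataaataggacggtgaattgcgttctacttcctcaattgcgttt
HSP26 holds 1 stress response element and 1 heat shock element in this window, HSP12 holds 3 stress response elements, and the window of HSP30 holds neither motif. The stress response element occurs in 23.6% of all windows, in 55.1% of the 147 windows of genes at least 4-fold lower, and in 18.3% of the 60 windows of genes at least 4-fold higher. It is in 36 of the 40 windows of the Msn2 and Msn4 list, a list that is partly defined by it.

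A heat shock element of 3 units (alternating GAA and TTC with any 2 bases between units, which contains the 2-unit motif) is in 1.10% of all windows, in 9.52% of those of genes at least 4-fold lower and in 14 of the 29 windows of the Hsf1 list. Its matches in HSP104 (chrXII:88318-88346, plus strand), HSP78 (chrIV:974465-974493, minus strand), the small heat shock protein gene HSP42 (chrIV:806375-806403, plus strand) and SSE1 (chrXVI:352441-352469, minus strand) are shown with flanking bases. The first 3 belong to genes that fell, and SSE1 is the member at -0.22 that did not pass.
HSP104: tttttccaGAATTTTCTAGAAgggttatt
HSP78: attttccaGAATGTTCTAGAAgtgttctt
HSP42: aagttctgGAAGGTTCGCGAAttgagaac
SSE1: gaagatgaTTCTAGAAGATTCcttttcca
In HSP104, HSP78 and HSP42 a second 3-unit match overlaps the one shown. These shares and matches describe the letters in the windows, and binding was not measured.

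Genes of the cell surface and of daughter cells changed as well. Of 41 cell wall protein genes 16 rose and 19 fell, with a median of -0.08. SED1, an abundant wall glycoprotein, was at 3113, 3141 and 3312 CPM in wild type and at 147, 168 and 152 CPM in SWI3 S237A (-4.36 ± 0.10, adjusted p = 1.11e-11). TIP1, a wall mannoprotein, was at 1092, 901 and 878 CPM against 114, 121 and 142 CPM (-2.93 ± 0.10, adjusted p = 2.32e-10). The hypoxic wall protein gene TIR1 fell by 3.40 ± 0.14 on the log2 scale. CCW12, an abundant wall protein gene, did not pass (0.26 ± 0.13, adjusted p = 0.0887). It passed without wild type replicate 1 (0.34, adjusted p = 0.0313), with total counts (0.31, adjusted p = 0.0270) and with DESeq2 (0.29, adjusted p = 0.0477). Of 26 drug and metal resistance genes 16 fell and 6 rose, with a median of -0.70, and those that fell include the exporters QDR2 (-3.98 ± 0.11) and TPO1 (-2.22 ± 0.09). Of 8 flocculins and their regulators 7 rose and 0 fell, with a median of 0.94. FLO1 rose by 1.36 ± 0.09 and FLO10 by 1.03 ± 0.09, and the words of FLO1 are largely shared with other genes.

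HO, the endonuclease that starts mating type switching, was at 30.01, 50.7 and 51.0 CPM in wild type and at 3.05 to 3.87 CPM in SWI3 S237A, without overlap. It fell 12.3-fold (log2 -3.62 ± 0.23, adjusted p = 1.93e-07). Of 19 genes in the list of HO and daughter cell genes 11 fell and 4 rose, with a median of -0.50. PST1, a wall protein, fell by 2.38 ± 0.07, PCL9, a cyclin, by 1.56 ± 0.09, and ASH1, the daughter-specific repressor of HO, by 0.72 ± 0.08 on the log2 scale. SUN4, a glucanase involved in cell separation, rose by 1.21 ± 0.09. SWI5, which encodes an activator of HO, was at -0.16 and did not pass (adjusted p = 0.17). Among the 5 alpha-specific genes 3 fell and 1 rose. MF(ALPHA)2, the minor pheromone gene, was at 748, 503 and 490 CPM in wild type and at 109, 121 and 113 CPM in SWI3 S237A (-2.34 ± 0.15, adjusted p = 6.19e-08), whereas the major gene MF(ALPHA)1 rose by 0.46 ± 0.06 (adjusted p = 5.38e-05). SAG1, the alpha agglutinin, fell by 1.41 ± 0.16, and of 23 pheromone response genes 13 fell and 4 rose, with a median of -0.50.

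Hexose transporters bring glucose into the cell. Of 22 tested hexose transporter genes and regulators 7 rose and 4 fell, with a median of 0.28. These shares are 31.8% and 18.2%, beside 28.7% higher and 31.3% lower of all targets. HXT7, a high-affinity transporter, was at 1297, 2194 and 2210 CPM in wild type and at 15.3, 17.7 and 18.3 CPM in SWI3 S237A (-6.80 ± 0.26, adjusted p = 1.99e-09). HXT6, which shares 95.7% of its words with other genes, fell by 3.63 ± 0.28, so the split of reads between it and HXT7 is uncertain while both were lower. HXT4 fell by 3.73 ± 0.21 and the glucose sensor RGT2 rose by 0.90 ± 0.09. HXT2 was at 565 CPM in wild type replicate 1 and at 118 and 134 CPM in replicates 9 and 17, against 159, 158 and 165 CPM in SWI3 S237A. It did not pass (-0.76 ± 0.50, adjusted p = 0.218), and without replicate 1 it was higher in the mutant (0.35, adjusted p = 0.0249).

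Of 21 glycolysis genes 11 fell and 7 rose, with a median of -0.21. HXK1, a hexokinase made when glucose is scarce, was at 1407, 3427 and 3806 CPM in wild type and at 91.2, 107 and 103 CPM in SWI3 S237A (-4.84 ± 0.33, adjusted p = 7.98e-07). GLK1, glucokinase, fell by 1.99 ± 0.18 and TDH1, a stress-linked glyceraldehyde phosphate dehydrogenase, by 2.64 ± 0.18 on the log2 scale. FBA1 and PGK1, abundant core enzymes, were at 0.09 ± 0.07 and -0.03 ± 0.09 and did not pass. A separate list of 30 glucose-repressed genes had 13 rises and 3 falls (43.3% and 10%), with a median of 0.19. Without wild type replicate 1 it had 12 rises and 6 falls. Of 42 respiration genes 26 fell and 2 rose, with a median of -0.47. CYC7, the hypoxic isoform of cytochrome c, fell by 4.40 ± 0.24, COX5B by 2.55 ± 0.14 and QCR8, a subunit of the cytochrome bc1 complex, by 1.73 ± 0.09 on the log2 scale. ATP2, a subunit of the ATP synthase, was at -0.15 ± 0.15 and did not pass (adjusted p = 0.402), and without wild type replicate 1 it passed at -0.33 (adjusted p = 0.00884). Without that library 32 respiration genes fell and 1 rose, and without replicate 9 the numbers were 22 and 1. Of 21 citrate cycle genes 10 fell and 6 rose. Aconitase, ACO1, fell by 1.16 ± 0.11 and the mitochondrial citrate synthase CIT1 by 1.06 ± 0.13, while the peroxisomal citrate synthase CIT2 was at 82.8, 33.6 and 39.5 CPM in wild type and at 528, 533 and 529 CPM in SWI3 S237A (3.35 ± 0.33, adjusted p = 1.34e-05).

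**Figure D3:**
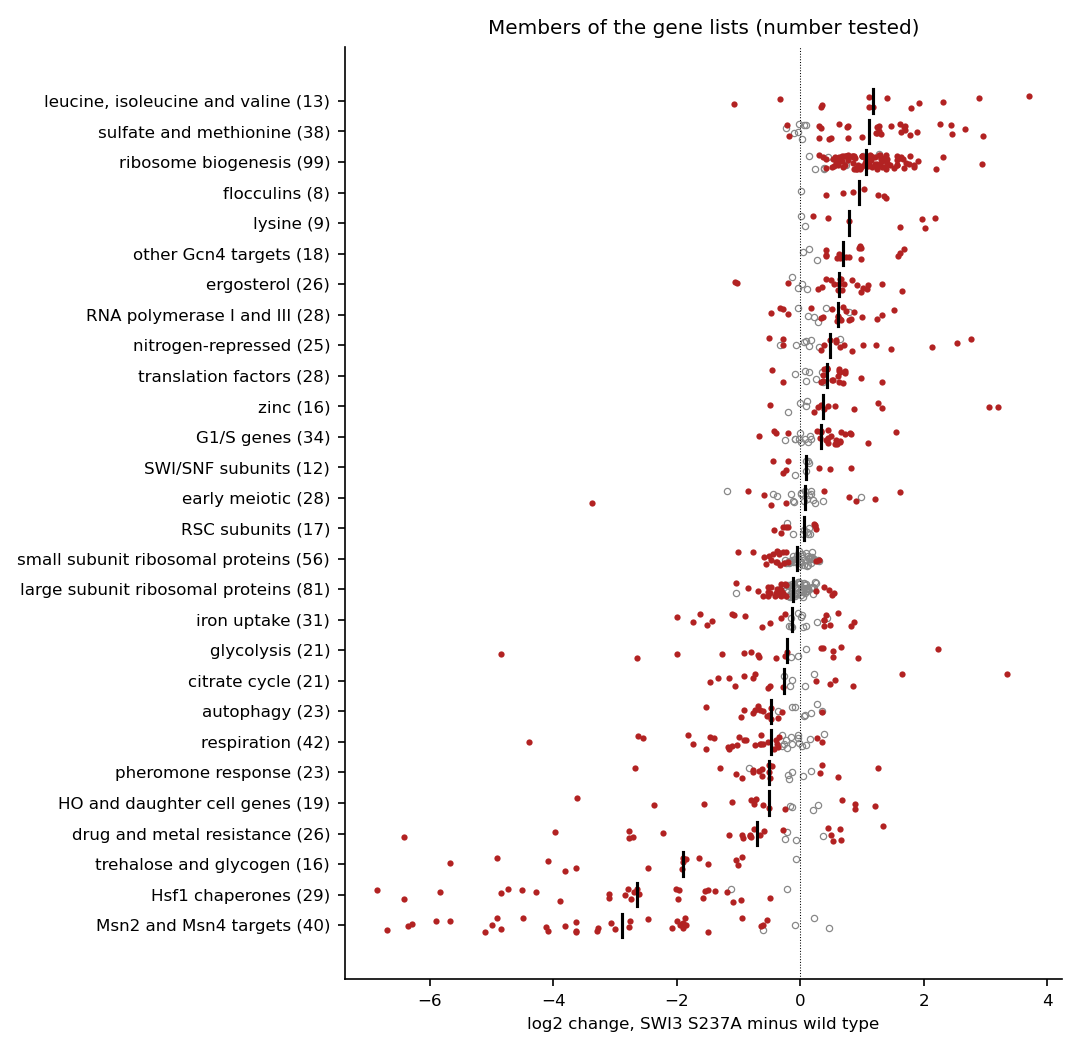
Log2 difference (SWI3 S237A minus wild type) of each member of 28 gene lists; filled points passed the test, open points did not, and black bars are medians. Lists run from Msn2 and Msn4 targets at a median of -2.88 to the leucine, isoleucine and valine genes at 1.17, and single genes of several lists lie far from their median.

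Among the largest rises were genes of lipid, amino acid and ribosome synthesis. OLE1, the fatty acid desaturase, was at 190, 60.3 and 52.8 CPM in wild type and at 2043, 2011 and 2058 CPM in SWI3 S237A (4.33 ± 0.47, adjusted p = 3.17e-05). LEU1, the isopropylmalate isomerase of leucine synthesis, was at 130, 113 and 112 CPM against 1551, 1571 and 1517 CPM (3.71 ± 0.09, adjusted p = 1.07e-11). NSR1, a nucleolar protein of ribosome assembly, was at 130, 45.5 and 53.2 CPM against 553, 594 and 610 CPM (2.94 ± 0.37, adjusted p = 7.67e-05). IZH1 and IZH4, membrane proteins of zinc homeostasis, rose by 3.21 ± 0.11 and 3.05 ± 0.25. The groups did not overlap in any of these genes, and in OLE1 and NSR1 wild type replicate 1 was the highest of the wild type libraries. The rule also took 2 frames that are not in the reference annotation, YER068C-A (3.19 ± 0.22) and YGR160W (3.00 ± 0.36), whose reads may belong to neighbouring genes.

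Leucine, isoleucine and valine are made by a shared branched-chain pathway. Of 13 leucine, isoleucine and valine genes 11 rose and 2 fell, with a median of 1.17. OAC1, the mitochondrial carrier that exports isopropylmalate, was at 19.8, 20.2 and 23.6 CPM in wild type and at 158, 147 and 168 CPM in SWI3 S237A (2.89 ± 0.09, adjusted p = 9.48e-11). BAT1, the mitochondrial transaminase, was at 234, 202 and 205 CPM against 1016, 1133 and 1044 CPM (2.32 ± 0.08, adjusted p = 2.36e-10). ILV3, a dehydratase shared by the 3 pathways, rose by 1.92 ± 0.08. Those that fell were LEU2, the dehydrogenase of leucine synthesis (-0.32 ± 0.09, adjusted p = 0.00610), and BAT2, the cytosolic transaminase (-1.08 ± 0.09, adjusted p = 4.86e-07).

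Leu3 is the activator of this pathway and binds a pair of CCGG separated by any 2 bases, which is found in 10 of the 6007 windows and in 4 of the 13 of the list. The window of LEU1 (chrVII:478753-479052, minus strand) is shown whole, with the Leu3 motif in capitals, because LEU1 rose most in the list. The sites of BAT1 (chrVIII:517375-517404, plus strand), ILV5 (chrXII:839611-839640, minus strand) and LEU2 (chrIII:91116-91145, plus strand) are the other matches in the list, and of these 4 genes LEU2 fell.
LEU1: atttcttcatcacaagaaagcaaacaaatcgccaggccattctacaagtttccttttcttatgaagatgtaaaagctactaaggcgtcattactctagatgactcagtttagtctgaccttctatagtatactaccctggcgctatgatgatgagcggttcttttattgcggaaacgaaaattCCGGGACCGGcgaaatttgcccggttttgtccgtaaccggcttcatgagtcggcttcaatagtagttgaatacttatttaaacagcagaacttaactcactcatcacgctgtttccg
BAT1: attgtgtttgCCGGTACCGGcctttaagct
ILV5: gcggtctcctCCGGTACCGGttctgccacc
LEU2: ggtgagagcgCCGGAACCGGcttttcatat
The same LEU1 window also holds 1 match to TGACTCA, the site of the amino acid regulator Gcn4. That site is in 2.90% of all windows and in 6 of the 13 of the list. Of the 354 windows of genes at least 2-fold higher, 5.65% hold it. OAC1, which rose 7.43-fold, has no Leu3 match in its window. The windows of OLE1 and CIT2, which ranked 1 and 3 among the largest rises, hold no Leu3 or Gcn4 match and are not shown.

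Sulfate is reduced and built into methionine and cysteine. Of 38 tested sulfate and methionine genes 29 rose, 2 fell and 7 did not pass, with a median of 1.11. MET3, the sulfurylase that activates sulfate, was at 46.7, 42.5 and 46.5 CPM in wild type and at 362, 353 and 343 CPM in SWI3 S237A (2.96 ± 0.07, adjusted p = 1.16e-11). MET6, methionine synthase, was at 402, 392 and 431 CPM against 2585, 2613 and 2535 CPM (2.66 ± 0.07, adjusted p = 2.77e-11). The sulfite reductase subunit MET5 rose by 2.45 ± 0.08 and the sulfate permease SUL2 by 2.26 ± 0.08. CYS4, which turns homocysteine toward cysteine, was at -0.10 ± 0.07 and did not pass (adjusted p = 0.244). Cbf1, an activator of sulfur genes, binds CACGTG, which is in 4.54% of all windows and in 18 of the 38 of the list. Of the 354 windows of genes at least 2-fold higher, 6.78% hold it. Both matches of MET3 (chrX:455850-455879 and chrX:455867-455896, plus strand) are shown in capitals, as it rose most in the list.
MET3 distal: agaaaaaaaggtCACGTGaccagaaaagtc
MET3 proximal: gaccagaaaagtCACGTGtaattttgtaac

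Other amino acid pathways form separate lists. Of 9 lysine genes 7 rose and 0 fell, with a median of 0.79. LYS2, the reductase of the pathway, was at 314, 330 and 345 CPM in wild type and at 1353, 1368 and 1283 CPM in SWI3 S237A (2.02 ± 0.10, adjusted p = 3.1e-09). The homocitrate synthases LYS20 and LYS21 rose by 2.19 ± 0.09 and 1.97 ± 0.08, and they share 46.5% and 45.2% of their words with other genes. The regulator gene LYS14 was at 0.01 ± 0.10. Of 15 arginine genes 10 rose and 2 fell, among them CAR1 (2.32 ± 0.10), the arginase that degrades arginine. GCN4 itself was at 1058, 946 and 901 CPM against 1879, 1949 and 1895 CPM (0.98 ± 0.09, adjusted p = 1.22e-06). Of 18 further Gcn4 targets 15 rose and 0 fell, with a median of 0.69. URA2, the first enzyme of pyrimidine synthesis, rose by 2.33 ± 0.12. In the aromatic list of 16 genes 10 rose and 3 fell. TRP5, tryptophan synthase, rose by 1.11 ± 0.09, and ARO10, which acts with ARO9 in aromatic amino acid breakdown, fell by 3.15 ± 0.28 on the log2 scale.

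SER3, the first enzyme of serine synthesis, was at 42.7, 26.7 and 30.7 CPM in wild type and at 499, 471 and 492 CPM in SWI3 S237A, without overlap. It rose 14.6-fold (3.87 ± 0.15, adjusted p = 4.78e-10), and 7.75% of its words also occur in other genes. Its paralogue SER33 rose by 1.74 ± 0.10. Of the 12 serine and glycine genes 5 rose, 1 fell and 6 did not pass, with a median of 0.16, whereas 8 rose and 2 fell without wild type replicate 1. The member that fell was GCV1, a subunit of the glycine cleavage complex (-1.05 ± 0.15, adjusted p = 9.32e-05). The serine hydroxymethyltransferase SHM2 was at 786 CPM in wild type replicate 1 and at 223 and 221 CPM in the others, against 764 to 847 CPM in SWI3 S237A. It did not pass (0.96 ± 0.42, adjusted p = 0.0742), and without wild type replicate 1 it was higher by 1.85 (adjusted p = 8.87e-10). The adenine and one-carbon list had 6 rises and 2 falls among 15 genes, and 12 rises and 2 falls without that library.

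Of 26 tested genes known from other mutants to need SWI/SNF, for activation or for repression, 10 fell, 10 rose and 6 did not pass, which is 38.5% each way beside 31.3% lower and 28.7% higher of all targets. The median of -0.17 became 0.04 without wild type replicate 1. HO, SSA4 and HSP26 were among the falls and SER3 among the rises. MET16, which reduces activated sulfate, rose from 18.7, 17.9 and 18.2 CPM to 68.9, 66.6 and 68.6 CPM (1.90 ± 0.09, adjusted p = 2.39e-09). SUC2, invertase, was at 104, 247 and 257 CPM in wild type and at 161, 175 and 170 CPM in SWI3 S237A, with overlap (-0.27 ± 0.26, adjusted p = 0.402). Without wild type replicate 1 it was lower by 0.58 on the log2 scale (adjusted p = 1.64e-05).

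Nitrogen-repressed genes, which yeast shuts off on good nitrogen sources, had 14 rises, 3 falls and 8 genes that did not pass among 25, with a median of 0.47. GAP1, the general amino acid permease, was at 34.2, 53.8 and 51.2 CPM in wild type and at 307, 323 and 319 CPM in SWI3 S237A (2.77 ± 0.18, adjusted p = 1.32e-07). The ammonium permease MEP3 rose by 2.13 ± 0.12 and the proline permease PUT4 by 2.54 ± 0.26, from 1.99, 2.73 and 3.06 CPM. GLN1, glutamine synthetase, and GDH1, glutamate dehydrogenase, rose by 1.68 ± 0.09 and 1.62 ± 0.08. The acidic amino acid permease DIP5 rose by 1.91 ± 0.11, and the peptide permease PTR2 fell by 1.92 ± 0.12 on the log2 scale. GATA factors that control these genes bind GATAAG, which is in 14.0% of all windows and in 21 of the 25 of the list. The list holds genes known to be under these factors, so its share was largely set by that choice. GATAAG is in 13.6% of the 354 windows of genes at least 2-fold higher, and in 20% of the 60 at least 4-fold higher. The 3 matches of GAP1 (chrXI:514708-514737, chrXI:514758-514787 and chrXI:514809-514838, plus strand) are shown because it rose most in the list.
GAP1 distal: gatttggtaactGATAAGattgttaaatgt
GAP1 middle: acgtccgattagCTTATCttctggagcaac
GAP1 proximal: taaattaaacatGATAAGcgcatagttggg

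Lipid genes moved in both directions. Besides OLE1, FAA4, an acyl-CoA synthetase, rose by 2.63 ± 0.25, and MGA2, the membrane-bound activator of OLE1, rose from 63.9, 63.6 and 61.4 CPM to 191, 161 and 172 CPM (1.47 ± 0.09, adjusted p = 2.59e-08). FAA1, the major acyl-CoA synthetase, fell by 1.97 ± 0.08. Of 26 ergosterol genes 19 rose and 3 fell, with a median of 0.62, led by the squalene epoxidase ERG1 (1.65 ± 0.07). The phosphatidylcholine enzymes CHO2 and OPI3 fell by 2.33 ± 0.11 and 1.51 ± 0.11, while INO2, which encodes an activator of phospholipid genes, rose by 1.39 ± 0.09. Of 16 zinc genes 11 rose and 1 fell, with a median of 0.36.

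Ribosome biogenesis, the nucleolar program that builds ribosomes, rose in SWI3 S237A. Of 99 genes 90 rose, 0 fell and 9 did not pass, with a median of 1.05. ALB1, a pre-60S shuttling factor, was at 29.6, 22.1 and 20.9 CPM in wild type and at 71.7, 71.4 and 70.9 CPM in SWI3 S237A (1.56 ± 0.11, adjusted p = 1.25e-07). The helicase DBP7 rose by 1.30 ± 0.10 and the methyltransferase SPB1 by 1.30 ± 0.14. KRR1, a factor of 18S rRNA synthesis, was at 141 CPM in wild type replicate 1, 57.3 and 48.8 CPM in the others, and 137, 145 and 133 CPM in SWI3 S237A, and it did not pass (0.75 ± 0.34, adjusted p = 0.0805). Without wild type replicate 1 it passed at 1.38 (adjusted p = 8.4e-07). The summed TPM of the list was 5104, 2978 and 2901 in wild type and 9543, 8790 and 8912 in SWI3 S237A. Without wild type replicate 1, 97 of the 99 rose, with a median of 1.41.

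These genes are known for the PAC element (GATGAG) and the RRPE element (AAAAATTTT), found in 18.4% and 7.27% of all windows. In the list they are in 65 and 61 of 99 windows, and in genes at least 2-fold higher in 37.3% and 24.3% of 354 windows. Those 354 windows include members of this list. In genes at least 4-fold higher PAC is in 33.3% and RRPE in 5% of 60 windows, so RRPE lies below its share of all windows there. ALB1, described above, is shown because its window holds both, with the element in capitals (PAC at chrX:189579-189608 and RRPE at chrX:189589-189615, plus strand; the stretches overlap, and both matches are in reverse complement).
ALB1 PAC: gtttggaatgatCTCATCgcaaaatttttt
ALB1 RRPE: atctcatcgcAAAATTTTTtttcgcta

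Ribosomal protein genes form separate lists. Of 56 small subunit genes 2 rose and 17 fell (3.57% and 30.4%), with a median of -0.06. Of 81 large subunit genes 5 rose and 22 fell (6.17% and 27.2%), with a median of -0.12. Over all targets 28.7% rose and 31.3% fell, so neither share of falls exceeded that of all targets, and both shares of rises lay below it. RPS14B and RPL22B, minor copies of their pairs, fell by 1.00 ± 0.10 and 0.85 ± 0.10, and RPL3 was at 0.18 ± 0.08 (adjusted p = 0.0762). RPL3 passed without wild type replicate 1 (0.24, adjusted p = 0.00916), with RLE scaling (0.21, adjusted p = 0.0498), with total counts (0.23, adjusted p = 0.00855) and with DESeq2 (0.21, adjusted p = 0.0270). These counts moved with wild type replicate 1, without which 21 small subunit genes rose and 14 fell and 25 large subunit genes rose and 19 fell. They also moved with the scaling. Small subunit genes had 4 rises and 15 falls with RLE and 9 and 16 with total counts, and large subunit genes had 8 and 19 with RLE and 11 and 20 with total counts. Without replicate 9 or 17 the small subunit list had 0 rises and 16 or 20 falls. Of 28 subunits and factors of RNA polymerases I and III 18 rose and 4 fell, with a median of 0.60, and RPO31, the largest subunit of polymerase III, rose by 0.87 ± 0.10. Of 28 translation factors 19 rose and 2 fell, with a median of 0.43; EFT2, elongation factor 2, rose by 0.68 ± 0.10, with 95.0% of its words shared with its copy.

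**Figure D4:**
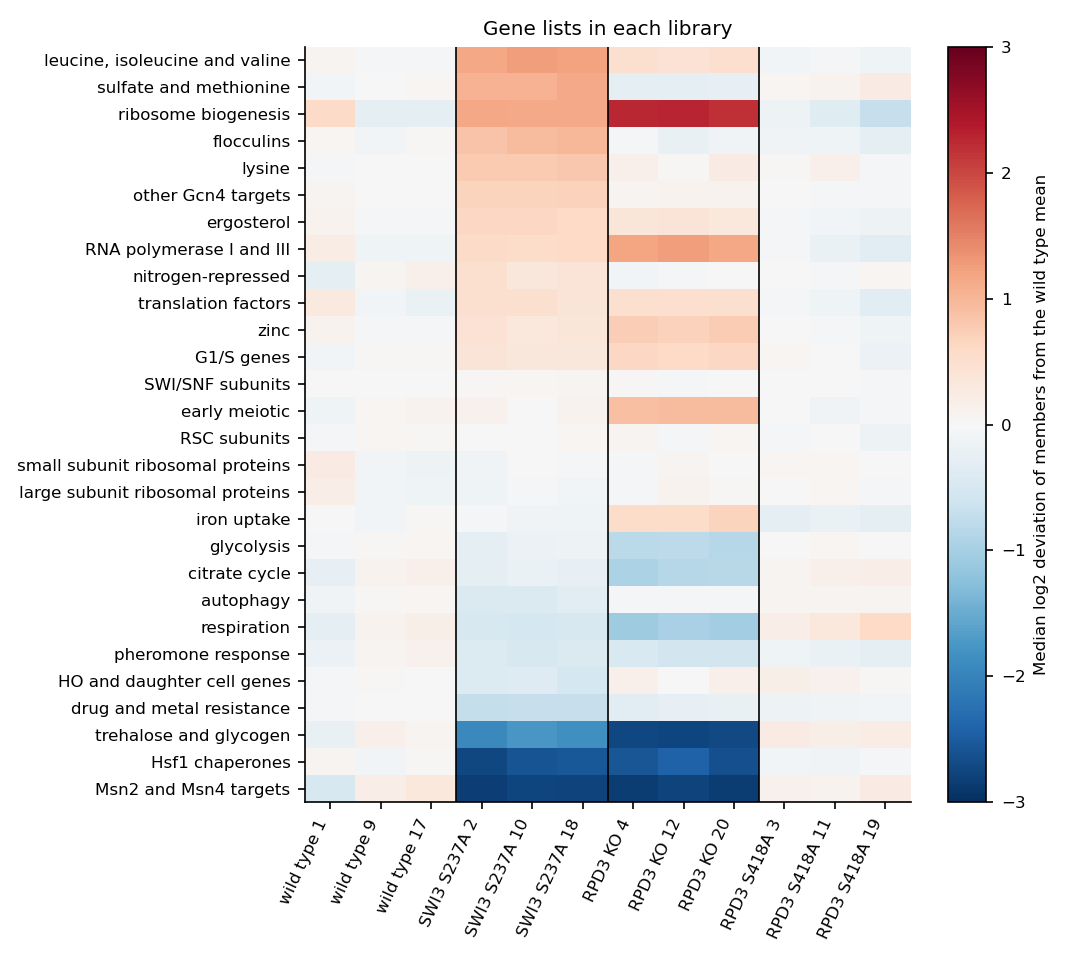
Median log2 deviation of list members from the wild type mean (colour) in each of the 12 libraries. Wild type replicate 1 departs from replicates 9 and 17 in ribosome biogenesis (0.57 against -0.26 and -0.30) and in Msn2 and Msn4 targets (-0.48 against 0.19 and 0.31).

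The counts of smaller lists stand beside 28.7% higher and 31.3% lower over all targets. Of 10 histone genes 6 rose and 0 fell, with a median of 0.31, whereas 4 rose and 2 fell without wild type replicate 17. HHT2, for histone H3, rose by 0.55 ± 0.10 and HTB1, for H2B, by 0.61 ± 0.14. Of 34 G1/S genes 20 rose and 4 fell, with a median of 0.33. Among 20 G2/M genes 8 rose and 5 fell, but 7 rose and 8 fell without wild type replicate 1, and 6 rose and 3 fell without replicate 17. CLB1, a mitotic cyclin, was at 45.9, 74.6 and 66.7 CPM in wild type against 20.0, 18.2 and 20.5 CPM in SWI3 S237A (-1.67 ± 0.15, adjusted p = 1.41e-06). Of 20 genes of the unfolded protein response 8 rose and 6 fell; those that fell include KAR2, the Hsp70 of the endoplasmic reticulum (-2.16 ± 0.09), and the oxidase ERO1 (-2.05 ± 0.12). Of 23 autophagy genes 14 fell and 1 rose, with a median of -0.47. Of 28 early meiotic genes 5 rose and 5 fell (17.9% each), shares below those of all targets. NDJ1, a meiotic telomere protein, fell by 3.37 ± 0.17 on the log2 scale. PHM8, a phosphatase that responds to low phosphate, fell by 3.33 ± 0.09. TRA1, the scaffold of the SAGA coactivator, rose by 1.31 ± 0.16, among 3 rises and 4 falls in 19 SAGA genes (15.8% and 21.1%). There were 8 falls without wild type replicate 1 and 2 without replicate 17. Of 17 subunits of RSC, the sister remodeller of SWI/SNF, 4 rose and 5 fell, with values from -0.42 to 0.25 and shares (23.5% and 29.4%) below those of all targets. The number that rose was 2 without wild type replicate 1 and 2 without replicate 9.

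Ty retrotransposons lie in many near-identical copies, and the median transposon frame shared 99.4% of its words, so reads cannot be placed among copies. Of 62 tested frames, from 92 in the reference, 17 rose and 28 fell, and 12 of those that rose were at 0 counts in all 3 wild type libraries. Summed over the tested frames, which depends less on placement, the level was 13677, 11823 and 12141 CPM in wild type and 5208, 4856 and 4985 CPM in SWI3 S237A. All SWI3 S237A sums lay below all wild type sums. So did those of RPD3 KO (7810, 6484 and 7758 CPM) and of RPD3 S418A (10626, 10038 and 8260 CPM). No test was made of the sums.

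Genes close to chromosome ends were also counted, among those with at most 5% shared words. Within 10 kb of an end 14 of 30 tested genes rose and 4 fell, with a median of 0.36. From 10 to 20 kb 22 of 70 rose and 18 fell, with a median of 0.05, and beyond 40 kb 1499 of 5063 rose and 1651 fell, with a median of -0.02.

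SWI3 S237A was also set directly against RPD3 KO, a strain without the histone deacetylase Rpd3, known as a repressor of early meiotic and other genes. In this contrast 4075 targets passed (64.4%), 2042 higher (32.3%) and 2033 lower (32.1%) in SWI3 S237A. Scaling by total counts alone moved the median of all targets from -0.02 to -0.15 and gave 1520 higher and 2587 lower. RPD3 itself was at 0 counts in all 3 RPD3 KO libraries and at 88.3, 92.3 and 91.0 CPM in SWI3 S237A. The summed TPM of the Hsf1 list was 7971 to 8184 in RPD3 KO, beside 8371 to 8666 in SWI3 S237A. In the direct contrast 14 of the 29 Hsf1 genes were higher and 8 lower in SWI3 S237A, with a median of 0.24. The summed TPM of the Msn2 and Msn4 list was 2795 to 2935 in RPD3 KO, beside 2479 to 2724 in SWI3 S237A. Of its 40 genes 18 were higher and 8 lower in SWI3 S237A, with a median of 0.06. HSP104 was 1.42 ± 0.07 log2 units higher than in RPD3 KO (adjusted p = 5.84e-09), and HSP26 was lower (-1.57 ± 0.28, adjusted p = 0.000567). OLE1 was at 1786, 1861 and 1757 CPM in RPD3 KO and did not pass the test (0.18 ± 0.41, adjusted p = 0.721). Ribosome biogenesis was lower in SWI3 S237A than in RPD3 KO in 85 of 99 genes and higher in 0, with a median of -1.09.

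Single genes differed widely between these mutants. HO was at 97.7, 105 and 108 CPM in RPD3 KO, against 3.05 to 3.87 CPM in SWI3 S237A (-4.86 ± 0.23, adjusted p = 1.61e-08). ARO9 was at 136, 124 and 127 CPM in RPD3 KO (-5.04 ± 0.39, adjusted p = 1.68e-06) and ZEO1 at 224, 223 and 229 CPM (-4.20 ± 0.14, adjusted p = 1.74e-10). SED1 was at 2286, 1886 and 2229 CPM in RPD3 KO (-3.78 ± 0.10, adjusted p = 2.3e-11). In the other direction LEU1 was higher in SWI3 S237A than in RPD3 KO by 3.27 ± 0.09, MET3 by 3.41 ± 0.08, GAP1 by 3.49 ± 0.18 and SER3 by 2.42 ± 0.14, each without overlap. The siderophore transporter SIT1 and the wall mannoprotein FIT3 of iron uptake were at 321 to 358 and 528 to 596 CPM in RPD3 KO and at 14.9 to 16.3 and 26.1 to 31.4 CPM in SWI3 S237A. All 11 tested genes of the telomere-proximal COS family were higher in SWI3 S237A than in RPD3 KO, with a median of 5.84. Against wild type 3 of the 11 rose and 0 fell in SWI3 S237A, with a median of 0.003. Without wild type replicate 1 the numbers were 4 and 1. COS10 was at 23.1, 23.4 and 23.6 CPM in SWI3 S237A and at no more than 0.0495 CPM in RPD3 KO. Glycolysis was higher in SWI3 S237A in 17 of 21 genes and lower in 2, with a median of 1.21; PGK1 was at 3987 to 4047 CPM in RPD3 KO (1.49 ± 0.09).

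**Figure D5:**
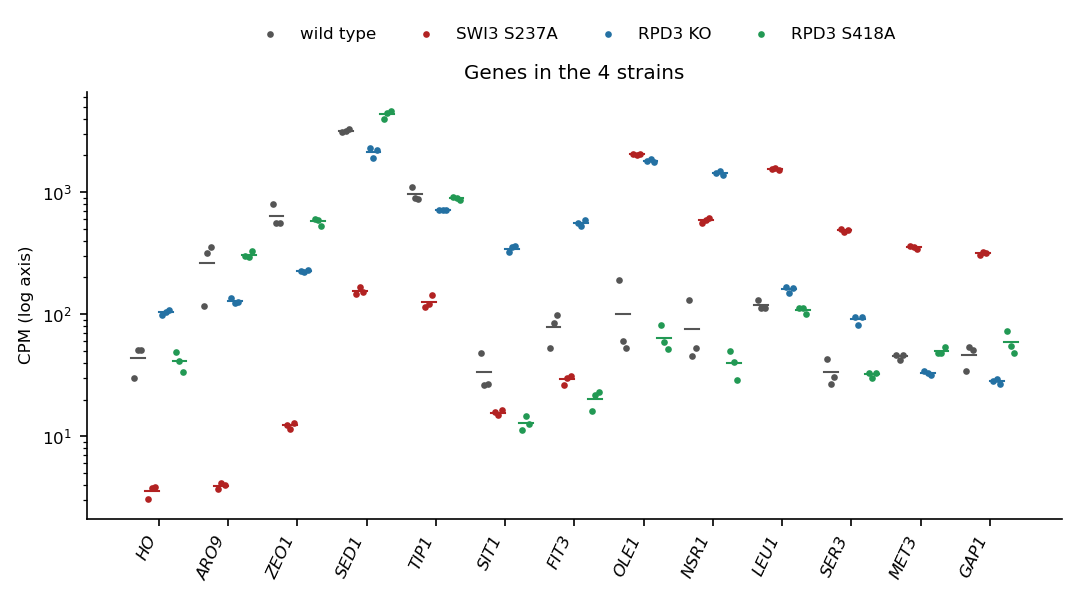
CPM (log axis) of 13 genes in the 3 libraries of each of the 4 strains; points are libraries and bars are means. HO, ARO9, ZEO1, SED1 and TIP1 are lowest in SWI3 S237A, LEU1, SER3, MET3 and GAP1 are highest there, and OLE1 lies between 1757 and 2058 CPM in both SWI3 S237A and RPD3 KO.

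Against RPD3 S418A, the other point mutant, 4166 targets passed (65.8%), 2020 higher (31.9%) and 2146 lower (33.9%) in SWI3 S237A. The largest falls in this contrast were HSP26 (-6.82), HSP12 (-6.51), HSP30 (-6.46), RGI1 (-6.44) and ARO9 (-6.29), and the largest rises OLE1 (4.99), NSR1 (3.87), LEU1 (3.84), CIT2 (3.73) and the unannotated frame YGR160W (3.67). HSP26 was at 588, 684 and 984 CPM in RPD3 S418A, within the range of wild type. All 99 ribosome biogenesis genes were higher in SWI3 S237A than in RPD3 S418A, with a median of 1.54. Of the 40 Msn2 and Msn4 targets 36 were lower and 1 higher, with a median of -3.21.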

How the data were processed

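Reads were trimmed with Trimmomatic 0.36 and quantified with kallisto 0.44.0 against R64, and DESeq2 was run, per the submitters' processing notes, with no strand setting stated there. Libraries were TruSeq Stranded mRNA from 600 ng of RNA, per the labels. Estimated counts per target, per the file headers, were deposited unscaled for each library, beside TPM values and target lengths. The authors' deposited table gives a mean signal, a score (Wald statistic), p-values and log2 fold changes with standard errors, of which the log2 values and adjusted p-values were used. No value column was left unmapped.

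Estimated counts were rounded, filtered with filterByExpr and scaled by TMM. One model over the 12 libraries (8 residual degrees of freedom) was fitted with edgeR 4.0.16 in R 4.3.3 (robust quasi-likelihood test, Benjamini-Hochberg adjustment over 6327 targets, threshold 0.05). In simulated counts for SWI3 S237A against wild type (6295 genes), 67, 67 and 66 genes were changed 1.5-fold, 2-fold and 4-fold. The fit recovered 80.6%, 83.6% and 97.0% of them, and 7.45% of its calls were unchanged genes. No simulated library stood apart as wild type replicate 1 does. Far fewer genes were changed than the 60.0% of targets called in the data, so these shares need not hold there. Totals of 20154519 to 26952041 counts put 3 counts at 0.109 to 0.153 CPM in the 6 libraries, which covers counting error only. Of the targets, 6026 matched the R64 annotation and 687 did not. Of the matched genes, 480 had over 5% of their 31-base words in other genes, so their counts are uncertain.

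The members and lists were chosen with earlier results of these data known, so lists are described by counts and medians only. Genes were named by a rule: SWI3, its neighbours and SWI/SNF subunits; the 12 largest rises and falls that passed, had a mean of at least 10 CPM, did not overlap and shared at most 5% of words; from each list up to 4 that passed with the smallest p and 2 that did not; and the 5 largest each way in the direct contrasts. BAT2, HSP42, ILV5, the pheromone genes MFA1 and MFA2 and the a-specific gene AGA2 fall outside it and were chosen after their values were seen. Alternatives were DESeq2 1.42.0, other scalings and filters, fewer libraries and non-robust dispersions.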

Additional observations from a re-analysis of the deposited data

How the results depend on the processing

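The number of targets called against wild type was 3813 with RLE scaling, 3716 with total counts (1981 higher, 1735 lower), 3781 without a filter, 3462 with a filter at 10 CPM, 3881 with DESeq2, 3811 without robust dispersions, 3587 with the 6 libraries alone, and 3381 to 4048 leaving out each library in turn. Leave-one-out counts were 3657 to 3748 against RPD3 KO and 3783 to 4054 against RPD3 S418A. The SWI3 transcript differed by 0.02 to 0.16 and did not pass in any of these settings. Of 172 results for single genes, 154 kept their call in every setting. Many of these genes were named for large changes or small p in the main fit, so this share does not describe all called targets. HXT2 reversed, from -0.76 (adjusted p = 0.218) to 0.35 (adjusted p = 0.0249) without wild type replicate 1, with a leave-one-out range of -1.12 to 0.35; the cause was not tested. List counts without that library were added after it was seen to stand apart. Among other lists, leaving out wild type replicate 17 gave 12 rises and 1 fall for arginine and 3 rises and 13 falls for autophagy, and leaving out 9 or 17 gave 9 rises and 2 falls for zinc. No paired analysis was possible because the groups share no replicate number, and the labels do not say that neighbouring numbers mark a set. No fit on such sets was made. Depth limits low genes: 3 counts equal 0.109 to 0.153 CPM.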
